A study of Mus musculus with 6 samples.

Results

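The 9 genes described here, Klk1b1, Klk1b7-ps, Klk1b8, Klk1b9, Klk1b11, Klk1b16, Klk1b21, Klk1b24 and Klk1b27, belong to the mouse glandular kallikreins, and each was read by 1 probe set whose symbol in the platform annotation is that gene's. They were 9 of 19505 genes measured with a single symbol. The study asked what loss of ovarian hormones does to the salivary gland, and profiled whole submandibular glands of female BALB/c mice on Clariom S mouse arrays. Surgery was done at 6 weeks of age and glands were taken 8 weeks later, at 14 weeks. The OVX group was 3 mice with both ovaries removed and the Cont group was 3 sham-operated mice, with 1 array per mouse and the labels name no transgene, drug or hormone replacement in either group. The 9 genes were chosen by their changes on these same arrays, so their difference between OVX and Cont is a description and carries no test. All values are log2 intensities as deposited, and a change is the OVX mean minus the Cont mean, so that a change of 1 is a doubling of intensity.

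Glandular kallikreins are secreted serine proteases of the trypsin fold, made in rodent salivary glands mainly by the granular convoluted tubule, a duct segment packed with secretory granules. This segment is larger in male than in female mice and is known to depend on androgens, and it also makes epidermal growth factor. The mouse family arose by repeated duplication of 1 ancestral gene, and its members remain very alike in sequence. A probe set of 1 member can therefore detect transcripts of another, which was not tested here, and the 9 sets of values are not 9 independent observations.

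All 9 genes lie on chromosome 7 (GRCm38.p6), with annotated start sites spread over 243.2 kb between Klk15 and Klk1. RefSeq promoter windows of 300 bases, from 250 before to 50 after the annotated start, were available for 8 of the 9, all but the pseudogene Klk1b7-ps. Each of the 8 windows holds the letters TTTAAA, as do 3 of the 4 windows of the other measured Klk1 family genes, against 13.2% of all 32851 mouse windows, searched on both strands. The stretches below run from 60 bases before that hexamer, in capitals, to 5 bases after it. They are shown because Klk1b16 and Klk1b11 have near-identical sequence around the hexamer and different measured changes. The same holds for Klk1b24, Klk1b21 and Klk1b27. Relative to the annotated start, the hexamer begins at position -31 in Klk1b24, -17 in Klk1b27 and 5 in Klk1b21, so the stretches are not at the same place. Klk1b5 is a family gene outside the 9 with a smaller measured change, and its OVX mean lay near the top of the scale. All are on the plus strand of the C57BL/6J reference, whereas the mice were BALB/c.
Klk1b16 (chr7:44137191-44137261): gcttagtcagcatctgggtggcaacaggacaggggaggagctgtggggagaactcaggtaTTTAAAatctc
Klk1b11 (chr7:43995777-43995847): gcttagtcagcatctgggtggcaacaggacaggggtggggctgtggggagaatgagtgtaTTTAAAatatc
Klk1b27 (chr7:44052213-44052283): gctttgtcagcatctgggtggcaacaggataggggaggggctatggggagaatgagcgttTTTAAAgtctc
Klk1b24 (chr7:44188145-44188215): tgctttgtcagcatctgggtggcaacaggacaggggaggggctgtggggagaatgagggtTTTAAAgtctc
Klk1b21 (chr7:44102236-44102306): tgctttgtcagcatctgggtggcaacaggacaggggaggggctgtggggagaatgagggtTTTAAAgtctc
Klk1b5 (chr7:44216372-44216442): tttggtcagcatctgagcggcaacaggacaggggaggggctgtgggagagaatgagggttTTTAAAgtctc

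All 9 genes had higher intensity on the OVX arrays than on the Cont arrays, by 2.10 to 4.12 with a median of 2.52, against a median of -0.02 over all genes. In every one of the 9, the lowest OVX array lay above the highest Cont array, by 1.5 for Klk1b11 at the least and by 3.37 for Klk1b16 at the most. Over all genes, 10.7% had the 3 OVX arrays above the 3 Cont arrays. At an adjusted p under 0.05 in limma, 2.57% of genes were higher in OVX and 1.07% were lower, and all 9 were among the higher ones. As the genes were chosen on this contrast, nothing is read from those counts.

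The pattern was steepest in Klk1b16, which encodes gamma-renin. Its log2 intensities were 8.68, 6.90 and 8.87 on Cont arrays 1, 2 and 3, and 12.28, 12.24 and 12.28 on OVX arrays 1, 2 and 3. The groups were far apart, and the Cont arrays differed widely among themselves. The means were 8.15 ± 1.09 in Cont and 12.27 ± 0.020 in OVX (SD, n = 3 each), a change of 4.12 with a standard error of 0.40, or 17.3-fold. Since Cont 2 was so low, the fold of the OVX mean over each single Cont array ran from 10.5 against Cont 3 to 41.4 against Cont 2.

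Klk1b27, Klk1b7-ps and Klk1b1 followed, with changes of 3.31 to 3.51. Klk1b27, which in mice is also expressed in the Leydig cells of the testis, read 8.19, 7.85 and 8.64 in Cont and 11.69, 11.74 and 11.78 in OVX, a change of 3.51 with a standard error of 0.19. Klk1b7-ps, annotated as a transcribed pseudogene, read 6.02, 5.74 and 6.48 in Cont and 9.28, 9.55 and 9.46 in OVX, a change of 3.35 with a standard error of 0.19. Its OVX mean of 9.43 ± 0.14 (SD, n = 3) was 3.63 below the highest value on any array, so of the 9 it had the most room above it. Klk1b1 read 8.50, 7.32 and 8.62 in Cont and 11.47, 11.53 and 11.37 in OVX, a change of 3.31 with a standard error of 0.28. In these 3 genes, as in Klk1b16, the OVX arrays were close together and Cont 2 was the lowest array.

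The other 5 genes changed by 2.10 to 2.52. Klk1b24, another kallikrein of Leydig cells as well as salivary gland, read 9.71, 9.35 and 10.04 in Cont and 12.30, 12.01 and 12.36 in OVX, a change of 2.52 with a standard error of 0.19. Klk1b8 read 10.15, 8.88 and 9.99 in Cont and 11.91, 11.86 and 11.96 in OVX, a change of 2.24 with a standard error of 0.27. Both groups stayed well apart in each. Klk1b11 read 11.15, 9.40 and 11.33 in Cont and 12.82, 12.89 and 12.84 in OVX, a change of 2.22 with a standard error of 0.39. Its Cont arrays 1 and 3 lay closest to the OVX arrays of any of the 9 genes. Klk1b9, the epidermal growth factor-binding protein of type C, read 10.52, 9.69 and 10.76 in Cont and 12.35, 12.49 and 12.55 in OVX, a change of 2.14 with a standard error of 0.23. Klk1b21 read 10.49, 9.77 and 10.73 in Cont and 12.38, 12.38 and 12.52 in OVX, a change of 2.10 with a standard error of 0.22. Klk1b9 and Klk1b21 ran almost together over the 6 arrays. In a bulk gland, more tubule cells and more kallikrein RNA per cell cannot be told apart.

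**Figure D1:**
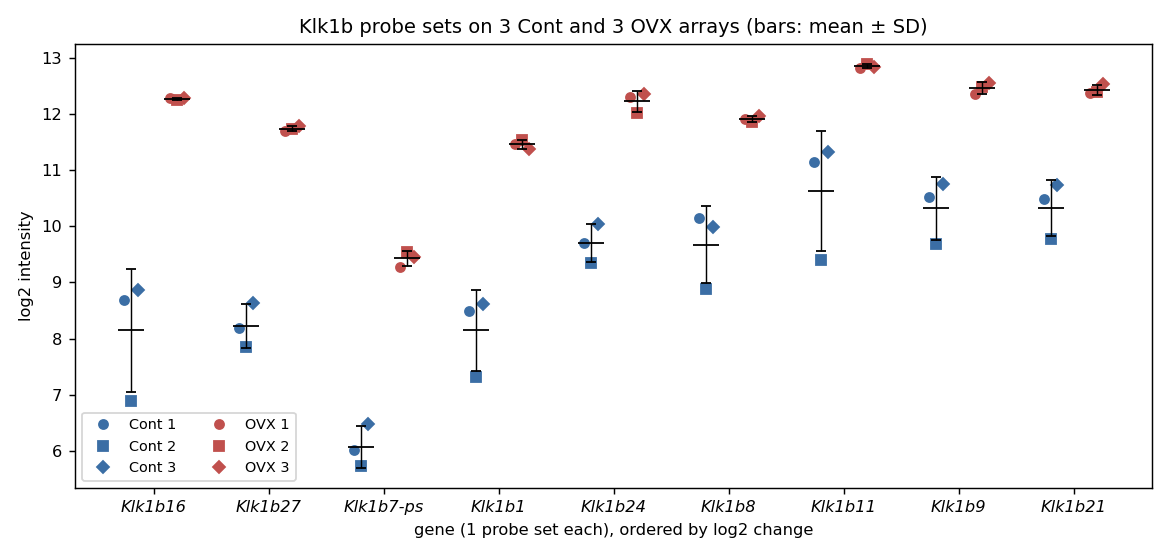
Log2 intensity of the 9 Klk1b genes on each array, with 1 point per mouse and bars for the mean and SD of Cont and of OVX. The OVX points of each gene sit above its Cont points, and the lowest Cont point of every gene is Cont 2.

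The 9 genes varied more among the Cont than among the OVX arrays. Cont 2 was the lowest Cont array in 9 of 9 genes, against 32.7% of all genes, and lay below the next Cont array by 0.28 in Klk1b7-ps to 1.79 in Klk1b16. Over all genes, 7.82% had Cont 2 below both other Cont arrays by at least 0.28. Cont 3 was the highest Cont array in 8 of the 9, Klk1b8 being the exception, although Cont 1 and Cont 3 differed by only 0.13 to 0.46. The Cont SD of the 9 genes ran from 0.34 to 1.09 with a median of 0.56, whereas the median Cont SD of all genes was 0.17. The OVX SD ran from 0.020 to 0.19 with a median of 0.081, against 0.16 for all genes. The Cont SD exceeded the OVX SD in 9 of 9, compared with 53.8% of all genes. Among the 270 genes with an OVX mean of at least 9.43, the lowest of the 9, the median OVX SD was 0.11 and the Cont SD was the larger in 60%. Several OVX values lay near the top of the scale, and the part of that in their small spread was not tested. The arrays had been brought to nearly the same median, 5.20 to 5.22. The part of an array effect at high intensity in the low values of Cont 2 was not tested.

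Without Cont 2, each of the 9 changes became smaller, as it must where Cont 2 was the lowest Cont array. Klk1b16 then changed by 3.49, Klk1b27 by 3.33, Klk1b7-ps by 3.18 and Klk1b1 by 2.90. Klk1b24 changed by 2.35, Klk1b8 by 1.84, Klk1b9 and Klk1b21 by 1.82 and Klk1b11 by 1.61. Klk1b11 and Klk1b16, whose values fell furthest in Cont 2, lost the most.

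**Figure D2:**
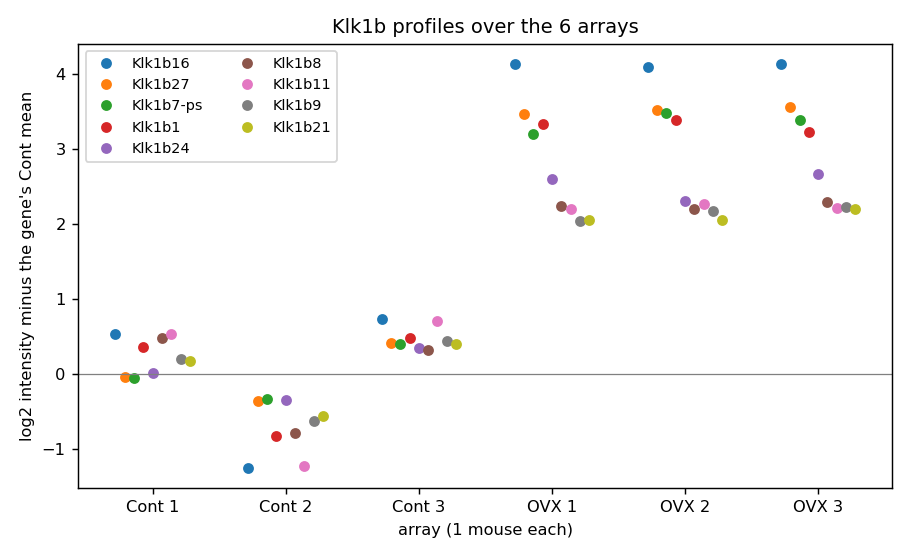
Log2 intensity of the 9 Klk1b genes on the 6 arrays, minus each gene's Cont mean, with 1 colour per gene. In Cont 2 every gene lies below its Cont mean, furthest in Klk1b16 and Klk1b11, and in OVX they fall into Klk1b16, a middle group of Klk1b27, Klk1b7-ps and Klk1b1, and the other 5.

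The ratio of 2 members within an array leaves out any offset that both share on that array. Standard errors of these ratios come from the 3 ratios of each group alone, not from limma, unlike those of single genes. Of 36 pairs, 24 had ratios that did not overlap between the OVX and the Cont arrays, against 22.8% of all pairs of genes. As the members were chosen on this contrast, and neighbours are set by the order of change on the same arrays, nothing is read from these counts. Of the 8 pairs of neighbours in the order of change, 2 did not overlap, Klk1b1 over Klk1b24 and Klk1b27 over Klk1b7-ps. The step from Klk1b1 to Klk1b24 was 0.79 with a standard error of 0.29, and that from Klk1b27 to Klk1b7-ps was 0.16 with a standard error of 0.067. Ratios overlapped in the other 6 neighbouring pairs, including Klk1b16 over Klk1b27, whose step was 0.60 with a standard error of 0.45. Among the lower 5 genes, only Klk1b24 over Klk1b21 did not overlap, and it differed by 0.43 with a standard error of 0.14. The steadiest ratio was Klk1b16 over Klk1b11, at -2.50 to -2.46 in Cont and -0.64 to -0.55 in OVX. The measured changes of Klk1b16 and Klk1b11 differed by 1.89 with a standard error of 0.032. That error was the smallest of the 36 pairs, and the pair is named for it, so it may be understated. The OVX mean of Klk1b11 was only 0.21 below the highest value on any array, so the change of Klk1b11 may be understated.

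The top of the intensity scale lay close to some of these values. The highest value of any gene on any array was 13.06. The OVX mean of Klk1b11 was 0.21 below it, those of Klk1b9 and Klk1b21 were 0.60 and 0.63 below it, and that of Klk1b16 was 0.79 below it. Those of Klk1b27 and Klk1b1 were 1.32 and 1.60 below it. The part of this upper range in the order of change was not tested. Quantile normalisation, which alters the spacing of bright values, gave changes from 1.85 in Klk1b21 to 3.81 in Klk1b16.

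Pairs with near-identical sequence around the hexamer are given with their measured changes. Over the window from 120 bases before the hexamer to 5 after it, the 28 pairs of the 8 genes were 78.2 to 100% identical, with a median of 84.2%. Klk1b21 and Klk1b24 were 100% identical there and changed by 2.10 and 2.52. Their OVX means were 0.63 and 0.83 below the highest value on any array. Klk1b27 was 96.2% identical to Klk1b21 and changed by 3.51. Klk1b11 and Klk1b16 were 93.2% identical, as the sequences above show in part, and changed by 2.22 and 4.12, with the OVX mean of Klk1b11 near the top of the scale as said above.

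Other motifs searched in these windows were mostly not found. TATAAA was in 0 of 8, against 13.6% of all windows. One arm of an androgen response element, TGTTCT or its complement AGAACA, was in 1 of 8, that of Klk1b24, against 19.0% of all windows. A full element, AGAACA and TGTTCT with any 3 bases between them, was in 0 of 8 and in 0.00913% of all. The oestrogen response element, GGTCA and TGACC with any 3 bases between them, was in 0 of 8 and in 0.07% of all. These counts say only that the letters are not in these windows, and nothing about the factors that bind them.

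The kallikrein genes of the locus outside the Klk1 family did not pass the test. The 12 other tissue kallikreins, Klk4 to Klk15, which lie next to the Klk1 family on the same chromosome, were all measured, and 0 passed an adjusted p of 0.05 in limma. At an unadjusted p under 0.05, limma had 0 higher and 2 lower, and the methods' t-test had 0 of either. Their changes ran from -0.50 to 0.36 with a median of -0.03. Their values ran from 1.88 in Klk11 to 5.46 in Klk15, around or below the array medians of 5.20 to 5.22, so these probe sets may be hardly above background and say little about a change of their genes. Klk15, whose start lies 13.3 kb from that of Klk1b7-ps, changed by 0.36 with a standard error of 0.21 (limma adjusted p = 0.451).

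**Figure D3:**
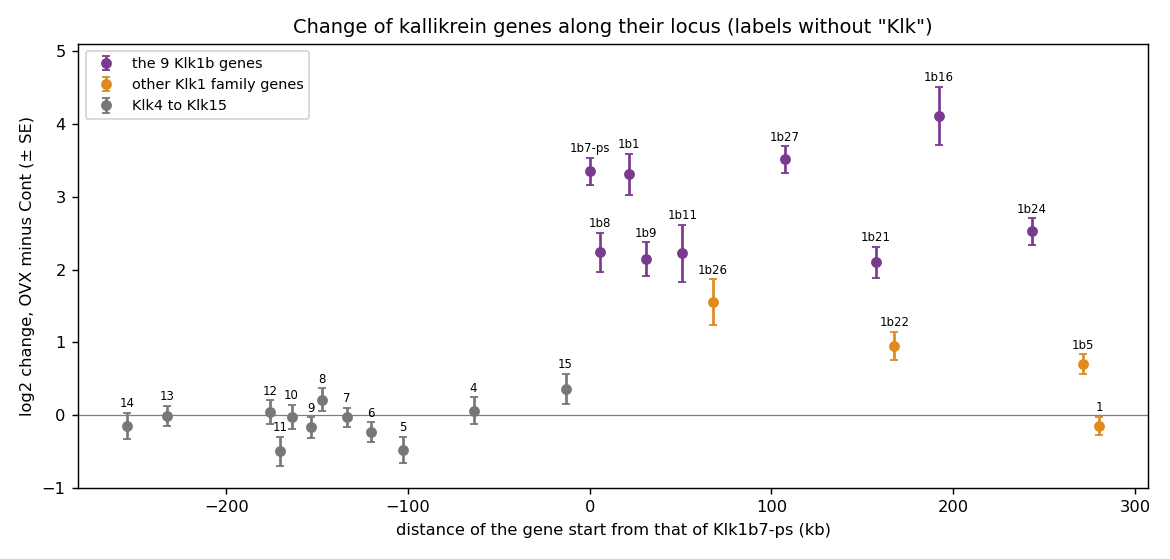
Log2 change (OVX minus Cont, with its standard error) of the measured kallikrein genes against the distance in kb of each annotated start site from that of Klk1b7-ps. Klk1b26 and Klk1b22 lie among the 9 Klk1b genes, which are at 2.10 to 4.12, and Klk1b5 and Klk1 lie beyond the last of them. These family genes had smaller measured changes, and their OVX means were near the top of the scale. Klk4 to Klk15, which were dim on all arrays, lie on 1 side between -0.50 and 0.36.

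Of 16 other Klk1 family genes listed, 4 were measured, and 3 of these were higher in OVX in limma. They were left out of the 9 with these values known, so the step from 2.10 in Klk1b21 to 1.55 in Klk1b26, the values nearest to each other on either side, was fixed by the choice. Klk1b26, a kallikrein that cleaves prorenin in mouse salivary gland, read 11.41, 9.99 and 11.48 in Cont and 12.48, 12.56 and 12.49 in OVX, a change of 1.55 with a standard error of 0.32 (limma adjusted p = 0.0208). Klk1b22, the epidermal growth factor-binding protein of type A, changed by 0.95 with a standard error of 0.19 (limma adjusted p = 0.0211). Klk1b5 changed by 0.70 with a standard error of 0.14 (limma adjusted p = 0.0167). The OVX means of Klk1b26, Klk1b22 and Klk1b5 were 0.55, 0.19 and 0.25 below the highest value on any array. Their highest Cont arrays were 1.58, 0.80 and 0.84 below it, so these changes may be understated. All 3 calls were lost when any OVX array was left out, with adjusted p up to 0.0888. Klk1b5 also lost its call without Cont 2 (adjusted p = 0.0647) and after quantile normalisation (adjusted p = 0.0597). Klk1b26 lost its call after quantile normalisation (adjusted p = 0.111) and in limma with trend and robust (adjusted p = 0.172).

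Klk1, the true tissue kallikrein, which releases kinins from kininogen, stood apart from its relatives. It read 13.00, 12.96 and 13.00 in Cont and 12.86, 12.81 and 12.84 in OVX, a change of -0.15 with a standard error of 0.13 (limma adjusted p = 0.616). Its highest Cont array was 0.056 below the highest value on any array, which left little range for a rise. Cont 2 was the lowest Cont array in all 13 measured Klk1 family genes, Klk1 included.

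Of 10 other products listed for the granular convoluted tubule, 6 were measured, 2 rose in limma, 0 fell and the median was 0.13. Egf, epidermal growth factor, read 8.56, 8.13 and 8.71 in Cont and 12.39, 12.52 and 12.38 in OVX, a change of 3.96 with a standard error of 0.16 (limma adjusted p = 1.13e-06). Its groups did not overlap, and only Klk1b16 of the 9 kallikreins changed by more. Crisp3, a secreted cysteine-rich protein, read 10.96, 9.85 and 10.97 in Cont and 12.37, 12.49 and 12.35 in OVX, a change of 1.81 with a standard error of 0.26 (limma adjusted p = 0.00239). In both genes Cont 2 was again the lowest array. The other 4 did not pass, with changes of -0.35 in Tgfa, -0.03 in Igf1, -0.005 in Bdnf and 0.26 in Nrg4.

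**Figure D4:**
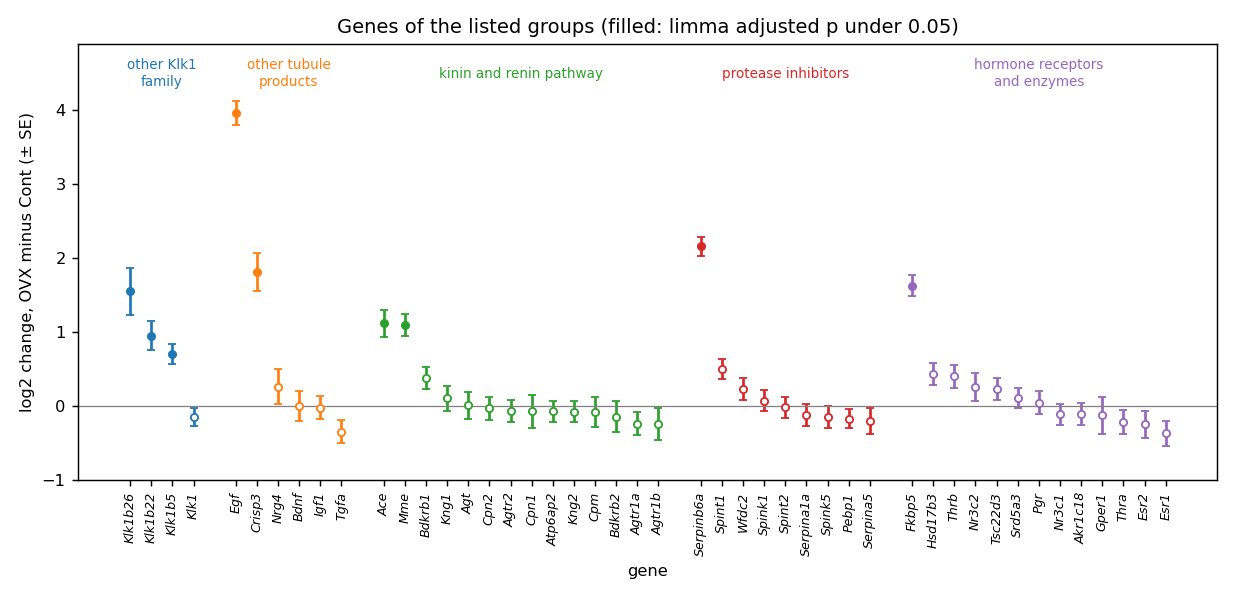
Log2 change (OVX minus Cont, with its standard error) of the measured other Klk1 family genes and other granular convoluted tubule products. The measured genes of the kinin and renin pathway, protease inhibitor and hormone receptor lists are also drawn. Filled points had a limma adjusted p under 0.05. Egf lies among the largest at 3.96, Klk1b26, Klk1b22 and Klk1b5 lie between 0.70 and 1.55, and Klk1 lies at -0.15.

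Genes that act with kallikreins were counted in 3 lists, beside 2.57% of all genes higher and 1.07% lower. Of 16 genes listed for the kallikrein-kinin and renin pathway, 14 were measured, with 2 higher, 0 lower and a median of -0.07. The 2 were the peptidases Ace, which makes angiotensin II and degrades bradykinin, at 1.11 with a standard error of 0.18 (limma adjusted p = 0.00533), and Mme, neprilysin, at 1.09 with a standard error of 0.15 (limma adjusted p = 0.00169). The kinin receptor gene Bdkrb1 was 0.38 higher, which did not pass (limma adjusted p = 0.215). Of 13 serine protease inhibitors listed, 9 were measured and 1 rose, Serpinb6a, an intracellular serpin, at 2.16 with a standard error of 0.13 (limma adjusted p = 6.88e-06). Of 18 genes listed for steroid and thyroid hormone receptors and androgen enzymes, 13 were measured and 1 rose, Fkbp5, a co-chaperone of steroid receptors, at 1.63 with a standard error of 0.15 (limma adjusted p = 9.65e-05). Esr1, oestrogen receptor alpha, was at -0.38 and did not pass (limma adjusted p = 0.315).

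Markers of other cells moved with the kallikreins, and their part in these changes was not tested. The summed level of each list is given as the lowest and the highest array of a group, on the log2 scale. Of 15 acinar markers measured of 18 listed, 7 fell and 0 rose, the median was -0.55, and the sum went from 15.03 to 15.12 in Cont to 14.52 to 14.61 in OVX. Smgc, a secretory protein of the gland, fell by 7.15 in that list, from a mean of 12.33 to 5.18, and is part of that sum. The defining acinar markers Aqp5 at -0.46, Bhlha15 at -0.45 and Prol1 at -0.07 did not pass (limma adjusted p = 0.149, 0.278 and 0.851). The count of 7 was 2 without OVX 1, 3 without OVX 2 or Cont 2, 4 without Cont 1 and at most 6 without any other array. Of 16 markers of striated and other ducts measured of 18, 5 rose, 0 fell and 11 did not pass, with a median of 0.27. The 5 were Gfra3 by 2.65, Scnn1b, a sodium channel subunit, by 1.17, Cftr by 0.96, Scnn1g by 0.93 and Krt7 by 0.79. Among those that did not pass were Krt19 at 0.46 and Slc26a6 at -0.56 (limma adjusted p = 0.1475 and 0.0691). The sum of that list went from 11.86 to 12.06 in Cont to 12.26 to 12.29 in OVX. Of 9 myoepithelial and basal markers, 7 rose, among them Acta2 by 1.77 and Tagln by 2.10. Krt14 at 0.51 and Oxtr at -0.03 did not pass (limma adjusted p = 0.121 and 0.952). With single arrays left out, that count of 7 ran from 5 (without Cont 2) to 7. The sum of that list went from 9.89 to 10.07 in Cont to 11.43 to 11.67 in OVX. Of 7 endothelial and fibroblast markers measured of 8, 3 rose and 0 fell. Those 3 were the fibroblast genes Col3a1 by 2.30, Col1a1 by 0.65 and Dcn by 0.60. The endothelial genes Pecam1 at -0.25, Cdh5 at -0.32, Kdr at 0.39 and Emcn at 0.11 did not pass (limma adjusted p = 0.411, 0.384, 0.198 and 0.762). The sum of that list went from 10.08 to 10.24 in Cont to 10.67 to 10.86 in OVX. That count of 3 was 2 without Cont 3 and 1 without any other single array. No list's defining markers were at 0, as array background gives every probe set a value.

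Markers of neighbouring glands and of other cells gave fewer calls. Of 6 sublingual and parotid genes measured of 8, 1 rose, Amy1, an amylase gene of the parotid gland, by 1.99 with a standard error of 0.27 (limma adjusted p = 0.00173), and the sum was 13.06 to 13.22 in Cont and 13.20 to 13.45 in OVX. Of 9 immune markers measured of 11, 0 passed in limma, with 2 higher and 1 lower at an unadjusted p under 0.05 and 0 and 1 by the methods' t-test, and the sum was 9.27 to 10.00 in Cont and 9.41 to 10.03 in OVX. Of 5 adipocyte markers measured of 6, 0 passed in limma, with 0 higher and 2 lower at an unadjusted p under 0.05 and 0 by the methods' t-test, and the sum was 7.76 to 8.72 in Cont and 6.92 to 7.67 in OVX. Of 6 skeletal muscle markers, 0 passed in limma and 0 had an unadjusted p under 0.05 by either test, and the sum was 6.85 to 6.90 in Cont and 6.87 to 6.93 in OVX.

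The genes outside the family whose 6 values ran most like the mean of the 9 kallikreins were Pkp1, Ireb2, Lactb2, Prss23 and Muc13, with Pearson correlations over the 6 arrays of 0.997 to 0.999. Pkp1 encodes a desmosomal plaque protein, Ireb2 an iron-responsive RNA-binding protein, Prss23 another secreted serine protease and Muc13 a membrane mucin. Their changes were 0.94, 0.50, 0.88, 2.90 and 2.10 in that order. Ireb2 did not pass (limma adjusted p = 0.0671), and the others did. The 6 points fall into the OVX and Cont groups, and 340 of 19480 genes outside the family reached 0.95, so it is given as a description.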

How the data were processed

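RNA from 6 submandibular glands was hybridised to Clariom S mouse arrays, 1 per mouse. The authors normalised the scans by signal space transformation with robust multichip analysis (SST-RMA) and deposited 1 table of log2 intensities per probe set. In the submitters' processing notes, Affymetrix Power Tools and RMA are listed without versions. Arrays give no read depth, and 3 per group limit the precision. Of the probe sets, 19572 had 1 gene symbol, 0 had several and 2634 had none listed; for 55 genes with several probe sets the brightest was kept, leaving 19505 genes and 0 missing values. Groups came from the labels. limma 3.58.1 (R 4.3.3), with no covariates, gave changes, their standard errors and Benjamini-Hochberg adjusted p over all genes. Standard errors of within-array ratios of members were computed from the ratios alone, without limma. The pipeline was tested on simulated data. An exact permutation of 3 against 3 arrays cannot go below 0.1, so single-gene permutation tests were not used.

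The members and gene lists were chosen with earlier results of these data known. Named were all members, the other measured Klk1 family genes, the up to 4 called genes of each list with the smallest p (or up to 2 that did not pass), a few fixed genes, and the 5 genes most correlated with the members' mean. The lists were other Klk1 family genes, other tissue kallikreins, other granular convoluted tubule products, kallikrein-kinin and renin pathway, protease inhibitors, hormone receptors, acinar, duct, myoepithelial, sublingual and parotid, immune, adipocyte, skeletal muscle, and endothelial and fibroblast genes. Promoter windows are RefSeq's (GRCm38.p6), aligned with Biopython 1.88 (Python 3.11.15, figures with matplotlib 3.10.9); the planned comparison of proteins was not run, and promoters were compared instead. Alternatives were quantile normalisation, median centring, all probe sets, leaving out the dimmest 30%, limma with trend and robust, the replicate block, averaging several probe sets of a gene, leaving out each array, the methods' t-test and the study's threshold.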

Additional observations from a re-analysis of the deposited data

How the results depend on the processing

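The median change of the 9 kallikreins was 2.52 and lay between 2.35 (without Cont 2) and 2.69 (without Cont 3) when single arrays were left out, and was 2.23 after quantile normalisation. The direction of each kallikrein held under every alternative run. The 9 genes were chosen on these arrays and their groups did not overlap, so leaving out an array could not reverse a direction. Nothing is read from that. Over all genes, 501 were higher and 208 lower. Leaving out single arrays gave 294 (without OVX 3) to 410 higher, with 297 without OVX 1 and 323 without Cont 2, and 85 (without OVX 1) to 151 lower, with 100 without OVX 2, 102 without OVX 3 and 105 without Cont 2. The methods' t-test gave 63 higher and 16 lower after Benjamini-Hochberg adjustment, limma with trend and robust gave 378 lower, and the study's threshold gave 334 lower. The other Klk1 family genes called higher, 3 in all, were 1 after quantile normalisation, 2 in limma with trend and robust, 0 to 3 with single arrays left out (0 without any 1 OVX array) and 0 by the methods' t-test. By the methods' t-test the tubule products called were 1 of the 2, and those of the kinin and renin pathway 0 of the 2. Same-numbered Cont and OVX arrays correlated at 0.0668, 0.0119 and -0.0381 in their deviations, so the numbers were not taken to pair the mice; with a replicate block 453 genes were higher, 177 lower, 3 other Klk1 family genes higher and the median of the kallikreins 2.52. The cause of these differences was not tested. Array background and the upper range of intensity, not depth, limit these values.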
